A study of Mus musculus with 12 samples.

Results

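Neuroligins and neurexins are cell-surface molecules that hold the presynaptic and postsynaptic sides of a synapse together, and MDGA proteins bind neuroligins. Of the genes of these families, 7 are described here, chosen by symbol (Nlgn1, Nlgn2, Nlgn3, Nrxn2, Nrxn3, Mdga1 and Mdga2) from the 19775 genes of the table. The 7 genes were picked with earlier results of these mice in view. Nlgn3 was among the genes that the study selected in both mutant genotypes, and Mdga1 among those it selected in homozygous mice, so the differences of Nlgn3 from wild type, and that of Mdga1 in homozygous mice, are given as a description and without a test. RNA came from the whole brains of male C57BL/6N mice at about postnatal day 120. There were 4 wild-type mice (WT), 4 mice heterozygous for a Slc6a20a allele that lacks exon 3 (HT) and 4 mice homozygous for it (HM), obtained by crossing heterozygous parents. The allele is constitutive, so that every tissue carried it from the start of development. Slc6a20a encodes a transporter of proline and glycine.

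Neuroligins sit in the postsynaptic membrane and bind presynaptic neurexins across the cleft. Neuroligin-1 is found mainly at excitatory synapses and neuroligin-2 at inhibitory ones, while neuroligin-3 occurs at both. Each neurexin gene makes long alpha and short beta proteins from separate promoters. MDGA1 and MDGA2 are anchored to the membrane by a lipid and bind neuroligins on the same cell, where they cover the site that neurexins would otherwise take. The neurexin and neuroligin genes have been linked to autism, and the comparison asks how the loss of Slc6a20a changes transcripts of the adult brain.

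To show where transcription of members starts, the 250 bases before the start are printed for one gene of each family. Sequences and start sites come from RefSeq on GRCm38.p6, and the set of windows used here covered 5 of the 7 genes (Nlgn1, Nlgn2, Nrxn3, Mdga1 and Mdga2). The windows shown do not overlap any annotated exon of their gene. They are chr11:69837785-69838034 on the minus strand for Nlgn2, chr12:89812233-89812482 on the plus strand for the last of the 3 starts of Nrxn3, and chr12:67222550-67222799 on the minus strand for Mdga2. Each is written 5′ to 3′ in the direction of its gene, and capitals mark the GC box GGGCGG read on either strand.
Nlgn2: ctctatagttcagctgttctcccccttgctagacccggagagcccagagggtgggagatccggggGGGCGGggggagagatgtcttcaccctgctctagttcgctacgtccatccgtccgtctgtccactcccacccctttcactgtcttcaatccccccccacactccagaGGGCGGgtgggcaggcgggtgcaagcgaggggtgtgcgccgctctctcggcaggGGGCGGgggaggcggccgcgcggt
Nrxn3: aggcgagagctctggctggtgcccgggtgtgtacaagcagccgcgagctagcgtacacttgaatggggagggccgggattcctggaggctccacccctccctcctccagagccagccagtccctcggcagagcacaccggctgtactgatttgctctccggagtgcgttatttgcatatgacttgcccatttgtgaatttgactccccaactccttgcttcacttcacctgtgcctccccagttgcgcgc
Mdga2: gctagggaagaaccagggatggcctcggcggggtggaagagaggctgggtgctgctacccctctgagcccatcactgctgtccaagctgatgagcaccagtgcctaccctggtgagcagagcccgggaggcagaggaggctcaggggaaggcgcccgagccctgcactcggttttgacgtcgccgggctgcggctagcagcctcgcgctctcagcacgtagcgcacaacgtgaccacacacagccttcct
The Nlgn2 window held 3 GC boxes, and the windows of Nrxn3 and Mdga2 held none. Over all 32815 windows of this length, 32.7% held at least 1 GC box. The CG dinucleotide occurred 18 times in the Nlgn2 window, 12 times in the Nrxn3 window and 15 times in the Mdga2 window, against a median of 6 over all windows. Windows not shown differed, with 2 and 5 at the other starts of Nrxn3, 5 and 9 for Nlgn1, and 21 for Mdga1. Of these, only the Mdga1 window held a GC box (1). Neither TATAAA nor TGACGTCA, searched on both strands, was present in the 3 windows, and they occurred in 12.4% and 1.55% of all windows.

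The 7 genes differed widely in level. Levels of different genes are compared as normalized counts per kb, that is the deposited value divided by the length of the longest protein-coding transcript, with the mean over all 12 mice given first. On this scale Nrxn2 had the highest level at 2065 normalized counts per kb, with the 12 mice between 1912 and 2182. Nlgn2 followed at 1687 per kb and Nrxn3 at 1097 per kb. Nlgn3 had 497.8 per kb, and the ranges of these 4 genes did not overlap between neighbours in the order. Nlgn1 (186.8 per kb), Mdga1 (177.5 per kb) and Mdga2 (174 per kb) formed the low end, and neighbours in this order overlapped, so that their order was not resolved. With the mean length of the coding transcripts in place of the longest one, 4 of the 7 genes kept their place, and Mdga2 moved up to the fifth with 539.9 per kb. With the union of all exons, Nlgn2 came first at 1623.5 per kb and Nrxn2 second at 997 per kb, without overlap, so that the order of these 2 genes depended on the length chosen.

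**Figure D1:**
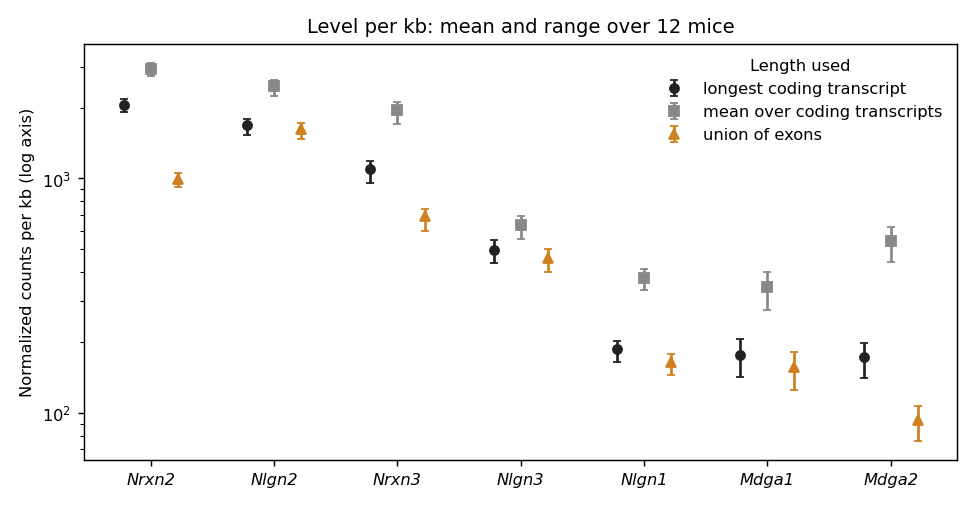
Normalized counts per kb of transcript (log axis) for each gene, as the mean over 12 mice with a bar from the lowest to the highest mouse, for 3 ways of taking the transcript length. Nrxn2, Nlgn2 and Nrxn3 lie above 953 per kb with the longest coding transcript, while Nlgn1, Mdga1 and Mdga2 lie between 141.8 and 206 per kb and overlap.

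Slc6a20a itself set the genotypes apart, with 679.3 ± 70.1 normalized counts in WT mice (SD, n = 4), 345 ± 29.1 in HT mice and 64.5 ± 9.95 in HM mice. The normalized counts of a mouse summed to between 33284951 and 33748623, because the deposited values are already scaled to a common size and do not show the sequencing depth. Differences between genotypes are log2 fold changes of log2(normalized count + 1), each given with a standard error (SE), from limma fitted to every gene whose mean reached 10 normalized counts. Adjusted p-values follow the Benjamini-Hochberg (BH) procedure across the whole table. In whole-brain RNA, fewer cells of a type and less RNA per cell cannot be told apart.

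Nlgn3 (ENSMUSG00000031302; chromosome X, 101299168 to 101325963, plus strand) encodes the neuroligin of both excitatory and inhibitory synapses. Its normalized counts in the 4 WT mice were 3709.6, 3945, 3899.5 and 3967. The HT mice had 4271.5, 4386, 4574 and 4655, and the HM mice had 4600.2, 4544, 4166 and 4300.3. Every mutant mouse thus lay above every WT mouse, and the mutant mouse nearest to WT was HM replicate 3. The HT mean was 15.2% higher than the WT mean, a log2 fold change of 0.20 (SE 0.04), and the HM mean was 13.5% higher, a log2 fold change of 0.18 (SE 0.04). These values describe a gene that was selected for them. HM and HT mice overlapped, and their difference was -0.02 (95% interval -0.11 to 0.07, limma, SE 0.04, adjusted p = 1). That contrast was not itself selected, although the HM and HT values entered the selection. The RNA of Gm21986, an annotated gene that overlaps Nlgn3 on the same strand, could share reads with it, which was not measured.

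Nlgn1 (ENSMUSG00000063887; chromosome 3, 25426215 to 26332460, minus strand), the neuroligin of excitatory synapses, was found at lower counts. WT mice had 2002, 2179, 2237 and 1954 normalized counts. HT mice had 2403, 2369, 2126 and 2181, and HM mice had 2259, 2182, 2214.5 and 2367. The genotypes overlapped, with 2 HT and 2 HM mice above all WT mice. Between HT and WT mice the log2 fold change was 0.12 (95% interval -0.01 to 0.24, limma, SE 0.06, adjusted p = 0.779). Between HM and WT mice it was 0.11 (95% interval -0.004 to 0.22, limma, SE 0.05, adjusted p = 0.724).

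Nlgn2 (ENSMUSG00000051790; chromosome 11, 69823122 to 69837784, minus strand), the neuroligin of inhibitory synapses, was the most abundant of the 3 per kb. The WT mice had 9312, 9866, 8535 and 8510.1 normalized counts, a wider spread than among the mutants. The HT mice lay between 9215 and 9995 normalized counts and the HM mice between 9218.5 and 9936. Only 1 mouse of each mutant genotype exceeded the highest WT mouse. For HT mice the log2 fold change was 0.09 (limma, SE 0.05, adjusted p = 0.808), and for HM mice 0.07 (limma, SE 0.05, adjusted p = 0.805), with 95% intervals of -0.02 to 0.20 and -0.04 to 0.18. A further fit blocked mice by the start of a number in the column names, called the animal number here, whose meaning is not stated. It rests on WT replicates 1 and 2 and HM replicates 3 and 4, and with it the HM value was -0.04. Without WT replicate 4 it was 0.04, and without WT replicate 2 it was 0.11.

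**Figure D2:**
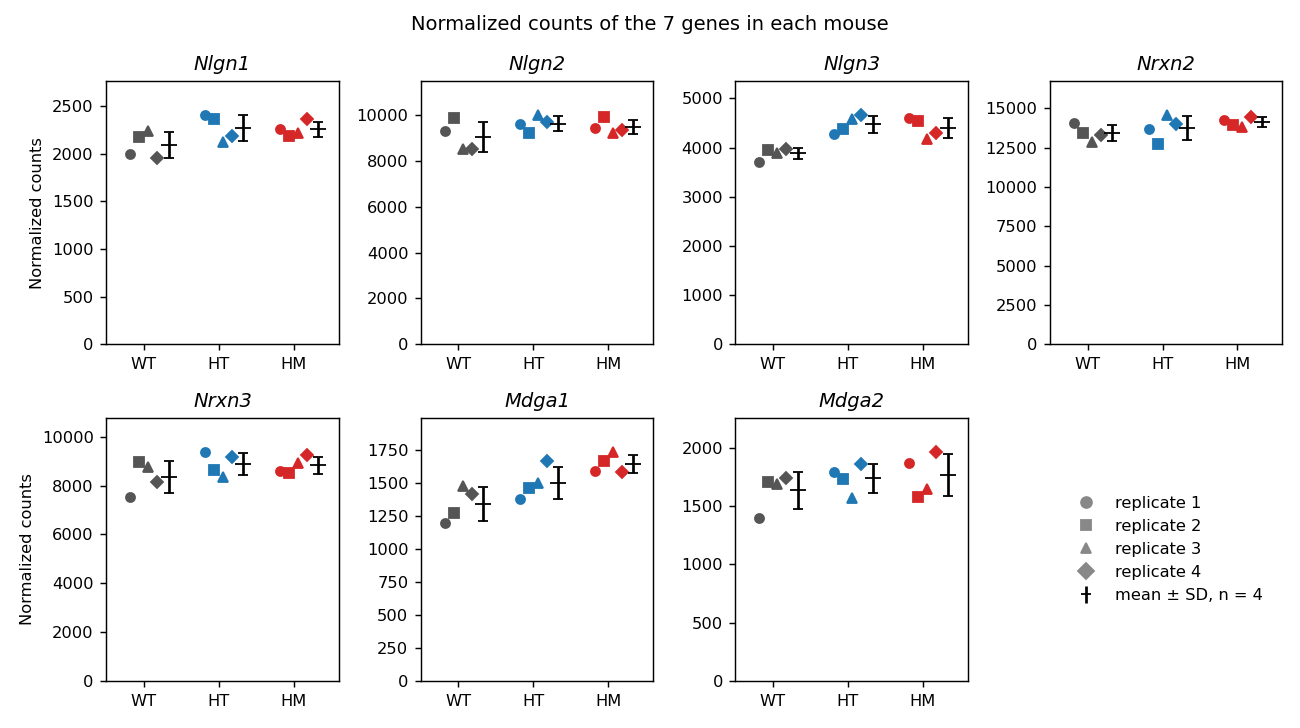
Normalized counts (linear axes from 0) of each gene in the 12 mice, with 1 symbol per replicate number and the mean ± SD of the 4 mice of a genotype beside them. For Nlgn3 all HT and HM points stand above the WT points, for Mdga1 the HM points do so, and the other 5 genes overlap between genotypes.

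Both neurexin genes overlapped between all genotypes. Nrxn2 (ENSMUSG00000033768; chromosome 19, 6418731 to 6544169, plus strand) had 14089.6, 13452, 12826 and 13323 normalized counts in WT mice. HT mice ranged from 12744 to 14547 and HM mice from 13779.8 to 14469. Although WT replicate 1 was the lowest WT mouse for other members, it had the highest WT value of Nrxn2. For HT mice the log2 fold change was 0.035 (95% interval -0.06 to 0.13, limma, SE 0.05, adjusted p = 0.92), and for HM mice 0.07 (95% interval -0.01 to 0.15, limma, SE 0.04, adjusted p = 0.728). Two-sided exact permutation tests over 4 against 4 mice, whose smallest possible p is 0.0286, gave p = 0.514 for HT and p = 0.0857 for HM mice. The HT value was 0.007 without HT replicate 3 and 0.071 without HT replicate 2.

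Nrxn3 (ENSMUSG00000066392; chromosome 12, 88722876 to 90334935, plus strand) spans 1612060 bp, more than any other of the 7 genes. Its WT values were 7551, 8984, 8741 and 8141 normalized counts, with replicate 1 the lowest of all 12 mice. HT mice lay between 8369.9 and 9372 and HM mice between 8504 and 9259.8. For HT mice the log2 fold change was 0.09 (95% interval -0.03 to 0.21, limma, SE 0.06, adjusted p = 0.839), and for HM mice 0.08 (95% interval -0.03 to 0.20, limma, SE 0.05, adjusted p = 0.787). Without WT replicate 1 the values fell to 0.04 and 0.035, and with the animal-number block they were 0.033 and 0.144. Because the counts are summed per gene, the alpha and beta forms of the neurexins were not told apart.

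Mdga1 (ENSMUSG00000043557; chromosome 17, 29827949 to 29970087, minus strand) encodes the MDGA protein best known for binding neuroligin-2. The WT mice had 1199, 1271, 1475 and 1416 normalized counts, and the HM mice had 1594, 1667, 1736 and 1582.5. All HM mice therefore stood above all WT mice, with a mean 22.7% higher and a log2 fold change of 0.30 (SE 0.07), the values for which the gene was selected. HT mice, which the selection did not use, had 1377, 1462, 1498 and 1670.4 normalized counts and lay between the other genotypes, with overlap on either side. Their log2 fold change against WT was 0.165 (SE 0.07, 95% interval 0.005 to 0.325), which did not pass the adjusted threshold (unadjusted p = 0.0439, limma adjusted p = 0.77, and exact permutation p = 0.171). From HT to HM mice the log2 fold change was 0.13 (SE 0.06, 95% interval 0.007 to 0.26), again without passing (unadjusted p = 0.0407, limma adjusted p = 1, and exact permutation p = 0.114). The WT and HM values in these comparisons entered the selection of Mdga1, so neither comparison is free of it. An annotated gene on the opposite strand, Gm16758, overlaps Mdga1, and since counting by strand is not stated, reads of the pair could have been shared. The same holds for annotated genes that overlap Nlgn1, Nrxn2, Nrxn3 and Mdga2 on the opposite strand, while Nlgn2 overlaps none. Annotated genes also overlap Nlgn1, Nrxn3 and Mdga2 on the same strand, as for Nlgn3, and shared reads were not measured. The 5 markers of the olfactory bulb, which include Eomes, Cdhr1 and Doc2g that the study selected on these mice, summed to 507.4 to 800.3 normalized counts in WT, 469.7 to 598.4 in HT and 751.9 to 1316 in HM mice, a mean log2 difference from WT of -0.46 in HT and 0.91 in HM mice. In HM mice, they summed to 1218, 751.9, 1028 and 1315.5 in replicates 1 to 4. The part of the olfactory bulb in the values of Mdga1 was not tested.

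Mdga2 (ENSMUSG00000034912; chromosome 12, 66466060 to 67222549, minus strand) showed no such order. WT mice had 1394, 1708, 1691 and 1735 normalized counts, with replicate 1 well below the other three. HT mice had 1791.5, 1730.5, 1570.2 and 1856 normalized counts, and HM mice had 1865, 1579, 1645 and 1961. The genotypes overlapped throughout, and Mdga2 was the most variable member within genotypes, with a pooled SD of 0.135 on the log2 scale against a median of 0.070 over 6471 genes of 1000 to 20000 normalized counts. For HT mice the log2 fold change was 0.09 (95% interval -0.07 to 0.25, limma, SE 0.07, adjusted p = 0.875), and for HM mice 0.11 (95% interval -0.07 to 0.29, limma, SE 0.08, adjusted p = 0.808). Without WT replicate 1 these fell to 0.02 and 0.04, and with the animal-number block they were 0.015 and 0.219.

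Apart from the contrasts for which a gene was selected, which are left out of these counts, 6 members could be counted in HT mice and 5 in HM mice. Of the 6 members in HT mice, 0 had an adjusted p under 0.05 (limma, BH), where 0.00555% of all 18004 genes did, and of the 5 in HM mice 0 did, where 0.0111% of all genes did. An unadjusted p under 0.05 was reached by 1 of the 6 in HT mice (Mdga1), against 6.42% of all genes, and by 0 of the 5 in HM mice, against 6.99%. Mdga1 was selected in HM mice against the same WT mice, so the HT count is not free of the selection. These counts moved with single mice. In HT mice the number was 3 without WT replicate 2, 2 without WT replicate 3 and 0 without WT replicate 1, HT replicate 2 or HT replicate 4. In HM mice it was 3 without WT replicate 2 and 1 without WT replicate 1 or 3. With all mice, the number in HM mice was 2 with the animal-number block and 1 with median centring.

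The mean of log2 values lay above WT for 6 of these 6 members in HT mice, against 50% of all genes, and for 5 of 5 in HM mice, against 49.8%. The 6 in HT mice include Mdga1, whose WT values entered its selection. The median log2 fold change of these members was 0.09 in HT mice, with a range from 0.035 to 0.165 (Mdga1). It was 0.08 in HM mice, with a range from 0.07 to 0.11, beside a median of 0.00 over all genes in each comparison. Corrected for transcript length and GC content, the medians were 0.06 and 0.04. Both comparisons take their differences from the same 4 WT mice, so a low WT value enters each of them. WT replicate 1 was the lowest WT mouse for 4 of the 7 members. Without overlap above or below WT were 0 of the 6 members in HT mice, against 3.73% of all genes (1.82% above and 1.91% below), and 0 of the 5 in HM mice, against 4.22% (2.41% above and 1.81% below).

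**Figure D3:**
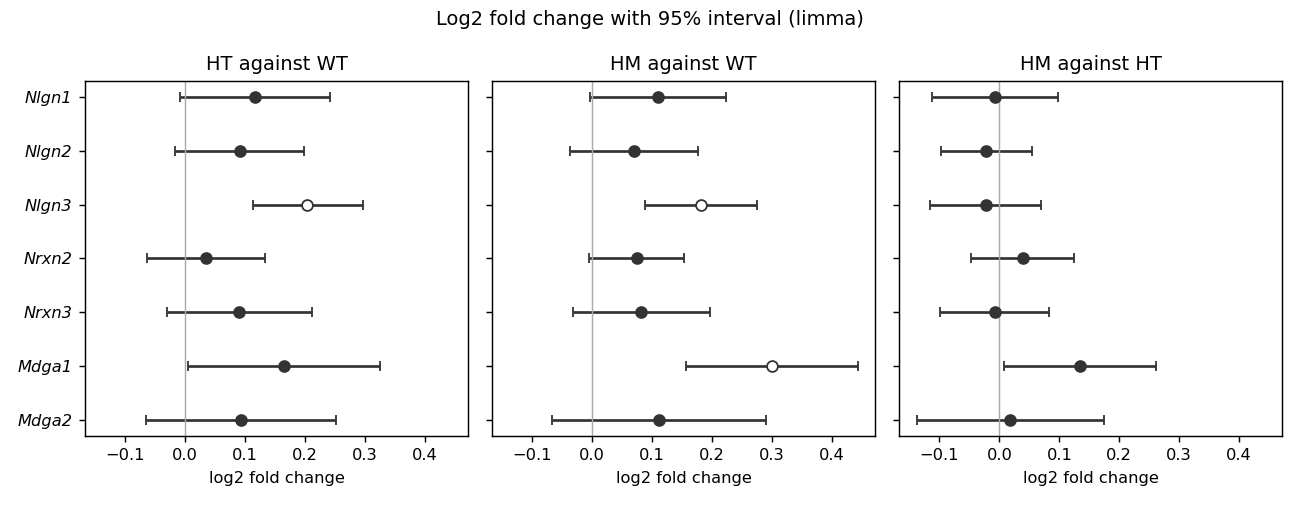
Log2 fold change of each gene with its 95% interval (limma) in the 3 comparisons; open circles mark the contrasts for which a gene was selected. Apart from those, the intervals reach or cross 0 except that of Mdga1 in HT against WT and in HM against HT, whose lower ends are 0.005 and 0.007. Both of these share mice with the contrast for which Mdga1 was selected.

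Set directly against each other, HM and HT mice did not separate for any member. Of the 7 members, 0 had an adjusted p under 0.05 (limma, BH), where 0.00556% of 17986 genes did, and 1 had an unadjusted p under 0.05 (Mdga1, higher in HM mice), against 3.74% of all genes and 2.11% in that direction. This count was 0 without HT replicate 1, 2 or 3 or HM replicate 2 or 3. The HM values of Mdga1 entered its selection, so the count is not free of it. The genotypes were free of overlap for 0 members, against 2.38% of all genes (1.24% higher and 1.14% lower in HM mice). The mean was higher in HM mice for 3 of 7 members, Nrxn2, Mdga1 and Mdga2, against 49.5% of all genes, and for 5 of 7 without HT replicate 1, HM replicate 2 or HM replicate 3. For the 6 members other than Mdga1 the log2 fold change lay between -0.02 and 0.04, and the 95% intervals reached from -0.14 to 0.17 at their widest, in Mdga2. With the animal-number block, which here compares HM replicate 4 alone with HT replicates 1 and 2, Nrxn2 had 0.131 and Mdga2 0.155. Over the 18 member comparisons that were not themselves selected, the smallest exact permutation p was 0.0857. Those of Mdga1 and Nlgn3 among them share mice with selected contrasts.

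Ratios taken within a mouse do not depend on how the libraries were scaled. In normalized counts per kb, Nlgn2 made up 72 ± 1.62% (SD, n = 4) of the sum of the 3 neuroligins in WT mice, 70.7 ± 0.721% in HT mice and 70.7 ± 0.645% in HM mice. Nlgn3 made up 20.2 ± 1.26% for WT, 21.4 ± 0.646% for HT and 21.4 ± 0.588% for HM mice. In WT mice the share of Nlgn3 was 19.08% and 19.1% in replicates 1 and 2 and 20.95% and 21.52% in replicates 3 and 4, so that the mutant mice, all between 20.55% and 22.23%, overlapped with WT. Nlgn1 contributed 7.86 ± 0.565% in WT mice and close to that in the mutants.

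Mdga1 was also set against Nlgn2, and there were 9.86 ± 1.57 Mdga1 for every 100 Nlgn2 per kb in WT mice, 10.3 ± 0.842 in HT mice and 11.5 ± 0.652 in HM mice. The HM mice, at 11.18, 11.09, 12.44 and 11.16, overlapped with WT replicate 3 at 11.42. The share of Mdga1 in the sum of Mdga1 and Mdga2 was 49 ± 1.80% for WT, 50.2 ± 2.31% for HT and 52.2 ± 3.5% for HM mice, and it lay above the WT range in HT replicates 3 and 4 and in HM replicates 2 and 3. Nrxn2 took 65.6 ± 2.44% of the sum of Nrxn2 and Nrxn3 in WT mice, 64.8 ± 1.8% in HT and 65.5 ± 0.806% in HM mice. None of the ratios separated a mutant genotype from WT.

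Members did not all vary together from mouse to mouse. Of the 21 pairs, 2 had a correlation of log2 values over the 12 mice with a BH-adjusted permutation p under 0.05. Nlgn1 and Nrxn3 had Pearson's r = 0.773 (permutation p = 0.0029, BH-adjusted 0.046) and Spearman's rho = 0.650 (permutation p = 0.026, BH-adjusted 0.27). Nrxn3 and Mdga2 had r = 0.771 (permutation p = 0.0044, BH-adjusted 0.046) and rho = 0.601 (permutation p = 0.043, BH-adjusted 0.30). When the 2 mice most distant from the first gene’s median were left out, r was 0.514 and 0.546, and among deviations from the genotype means it was 0.687 and 0.730. By rank, neither relation passed the correction.

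The genes whose log2 values ran most alike with each member over the 12 mice were sought among the 13125 genes that averaged 100 normalized counts or more. The r of such genes is the highest of many and is given without a test. For Nlgn1 they included Lmbrd2 (r = 0.936) and Taok1 (0.934), of which Taok1 encodes a protein kinase. For Nlgn2 they were Tigd3 (r = 0.902), Lgi2 (0.886) and Slc8a2 (0.854), and for Nlgn3 they were Sez6 (r = 0.952), Bace1 (0.920) and Pcdh1 (0.913). Among deviations from the genotype means, r with Nlgn3 was 0.793 for Sez6, 0.833 for Bace1 and 0.942 for Pcdh1. Bace1 encodes a protease that cleaves many neuronal membrane proteins, among them Sez6. Nrxn2 ran with Tedc2 (r = 0.930) and the tubulins Tubb2a (0.916) and Tubb5 (0.890), and Nrxn3 with the potassium channel Kcna1 (r = 0.942), the active-zone scaffold Pclo (0.935) and Clstn2 (0.926). Mdga1 was followed by Mycbp2 (r = 0.917), Acta2 (0.867) and Epc1 (0.863), and Mdga2 by Pdp2 (r = 0.909), Heg1 (0.908) and 2610005L07Rik (0.885). Among deviations from the genotype means, r with Mdga1 was 0.887 for Mycbp2, 0.708 for Acta2 and 0.712 for Epc1.

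A list of 39 genes whose products bind, cut or splice neurexins and neuroligins was followed beside the members. In HT mice 0 of the 38 tested had an adjusted p under 0.05 (limma, BH). An unadjusted p under 0.05 was reached by 4 that were higher than in WT, against 3.16% of all genes, and by 2 that were lower, against 3.26%. In HM mice 0 of 39 passed the adjusted threshold (limma, BH), and 6 with a higher and 0 with a lower mean had an unadjusted p under 0.05, against 3.93% and 3.05% of all genes. One of the 6 was Fam19a3, which passed the filter on low values through its HM mice, and without it 5 of 38 remained. The mean was higher than in WT for 29 of the 38 among HT mice and 27 of the 39 among HM mice, against 50% and 49.8% of all genes. The median log2 fold change of the list was 0.05 in HT mice and 0.06 in HM mice. The HM value was 0.03 without WT replicate 4 and 0.019 with the animal-number block.

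Among the postsynaptic partners of neuroligins, Magi2, a scaffold that binds neuroligins, stood at 3508 ± 263 normalized counts for WT mice, 4019 ± 156.5 for HT mice and 3891 ± 106.5 for HM mice. Its values in both mutant genotypes lay above all WT values, with log2 fold changes of 0.20 (limma, SE 0.06, adjusted p = 0.75) and 0.15 (limma, SE 0.05, adjusted p = 0.655). Dlg4, which encodes PSD-95, and Gphn, which encodes gephyrin, the scaffolds of excitatory and inhibitory synapses, had log2 fold changes of 0.03 and 0.08 in HM mice. All 5 genes of this group had a higher mean than WT in each mutant genotype, and 1 of the 5 (Magi2) had an unadjusted p under 0.05 in each, against 3.16% and 3.93% of all genes in that direction. A higher mean than WT was found for 15 of 21 neurexin ligands in HT and 14 of 22 in HM mice, 6 of 7 presynaptic partners in each, 1 of 2 sheddases in HT and 0 of 2 in HM mice, and 2 of 3 splicing factors in each.

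Among the 22 neurexin ligands other than neuroligins, Dag1, the gene of dystroglycan, averaged 3265 ± 162 normalized counts among WT mice, 3544 ± 134.5 among HT mice and 3534 ± 19.1 among HM mice. Lrrtm1, a postsynaptic leucine-rich repeat protein, averaged 2033 ± 68 for WT, 2183 ± 91.9 for HT and 2195.5 ± 92.1 for HM mice. Car10, which binds neurexins inside the secretory pathway, averaged 2960.0 ± 194 for WT, 3074 ± 103 for HT and 3355 ± 146 for HM mice, a log2 fold change of 0.18 in HM mice (limma, SE 0.05, adjusted p = 0.643). Its relative Car11 had a log2 fold change of -0.10 in HT mice (limma, SE 0.04, adjusted p = 0.77). Fam19a3, of a family of secreted neurexin ligands, averaged 5.38 ± 3.44 normalized counts for WT, 7.29 ± 4.42 for HT and 20.01 ± 11.6 for HM mice. It reached the mean of 10 only where HM mice were included, so no test of it is given. C1ql3, an adhesion ligand of the C1q family, had a log2 fold change of 0.135 in HT mice (limma, SE 0.05, adjusted p = 0.77).

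**Figure D4:**
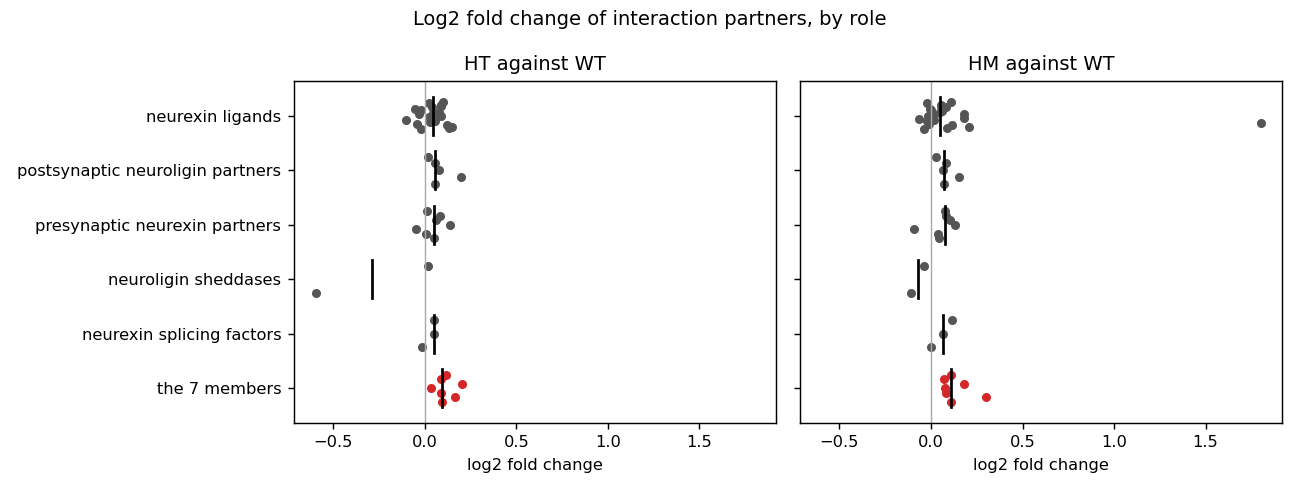
Log2 fold change of each listed partner gene, grouped by role, and of the 7 members (red), in HT and HM mice against the same WT mice; each point is a gene and black lines are medians. The groups lie mostly within 0.2 of 0, with Mmp9 at -0.595 in HT mice and Fam19a3 at 1.80 in HM mice as the extremes, the latter a gene that passed the filter on low values through its HM mice.

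Of the 7 presynaptic proteins that bind neurexins inside the cell, Apba2, the gene of the adaptor Mint2, had a log2 fold change of 0.10 in HM mice (limma, SE 0.04, adjusted p = 0.664), and no other gene of the group had an unadjusted p under 0.05 against WT. Among the 2 proteases that shed neuroligins, Adam10 had log2 fold changes of 0.015 in HT and -0.04 in HM mice. Mmp9 averaged 58.8 ± 13.1 normalized counts for WT, 38.2 ± 6.33 for HT and 54 ± 10 for HM mice, a log2 fold change of -0.595 in HT mice (limma, SE 0.21, adjusted p = 0.768). The 3 splicing factors of the neurexin genes, Khdrbs1, Khdrbs2 and Khdrbs3, had log2 fold changes between -0.015 and 0.12 against WT. In HM against HT mice, 0 of 39 partner genes passed the adjusted threshold (limma), and 3 had a higher mean in HM mice with an unadjusted p under 0.05, against 2.11% of all genes. These were Car10 (0.13), Mmp9 (0.49) and Fam19a3, which passed the filter through HM mice and without which 2 of 38 remained.

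Markers of the cell types and regions of the brain were followed beside the members. The summed level of 5 neuronal markers lay between 153534 and 166688 normalized counts in WT, 158384 and 170223 in HT and 163009 and 167848 in HM mice, all of them present in every mouse. The lists of 5 glutamatergic and 7 GABAergic markers, and of glia, endothelium, choroid plexus, meninges, blood, pituitary and cerebellum also overlapped between each mutant genotype and WT. The mean log2 difference from WT was largest among HT mice for erythrocyte genes (-0.81), and among HM mice for the olfactory bulb list described with Mdga1 (0.91), followed by choroid plexus genes (-0.42).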

How the data were processed

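RNA from 12 whole brains, 4 per genotype, was measured by poly-A sequencing. The authors estimated transcript abundance with Salmon 1.1.0 on GRCm38 with GC correction, summed it per gene and normalized it with DESeq2 1.30.1. The deposited signal is this normalized count for 19775 genes, 1 column per mouse. The values are not whole (at most 24.8% of low values of a mouse lay within 0.02 of a whole multiple of the commonest low value), so reads could not be recovered, count models were not fitted, and intervals from counting were not given. Columns were assigned by the genotype and number in their names, with KO taken as homozygous. Symbols, positions and lengths came from GENCODE M21 (GRCm38), which held 19758 of the identifiers.

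Each pair of genotypes was fitted on log2(value + 1) by limma 3.58.1 (R 4.3.3) with the trend option, keeping genes whose mean over the 8 mice reached 10, at a BH threshold of 0.05. Exact permutation tests were two-sided, and correlations used 100000 permutations. Python 3.11.15, numpy 2.4.6, scipy 1.17.1, pandas 2.3.3 and matplotlib 3.10.9 did the rest. The members and lists were chosen with earlier results of these data known. Named were all members, partner genes with an unadjusted p under 0.05 (at most 4 per direction and comparison), the 3 genes most like each member (1 of those for Nlgn1 is not reported here), and Slc6a20a. Partner genes outside this rule (Dlg4, Gphn, Adam10 and the Khdrbs genes) were named after their values were seen. A list of 2 other family genes and 5 marker genes were not analysed here. Alternatives were a pseudocount of 0.1, other filters, scalings and variance priors, one fit of all 12 mice, blocks for the replicate number or the animal number, a loess correction (span 0.4) for transcript length and GC content, and leaving out each mouse.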

Additional observations from a re-analysis of the deposited data

Results flagged for a closer look

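Mdga2 in WT mice was flagged because 1 mouse stood far from the others. Replicate 1 had 1394 normalized counts, while the other WT mice had 1691 to 1735, and the gap to the nearest mouse made up 0.870 of the whole range of the 4 mice, above the critical value for 4 samples. This test was made in 21 groups of 4 mice, and chance flags about 1 in 20 groups. Without this mouse the log2 fold change of Mdga2 against WT fell from 0.09 to 0.02 in HT mice and from 0.11 to 0.04 in HM mice. The cause was not tested.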

How the results depend on the processing

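Under the 11 alternatives other than leaving out a mouse, 229 of 231 member fold changes kept their direction, and the lowest adjusted p of a member not selected for its contrast was 0.604 (limma, BH, HM against WT with the animal-number block). The 2 that turned did so with the animal-number block, Nlgn2 in HM against WT (-0.044) and Nrxn3 in HM against HT (0.042), and the cause was not tested. In HM against HT that block compares only HM replicate 4 with HT replicates 1 and 2. The replicate numbers did not pair the mice (correlations of deviations from -0.066 to 0.087), and a replicate block left the fold changes of members as they were and changed the genes called in HM against WT from 2 to 1. Counts of members with an unadjusted p under 0.05 given here include Nlgn3 and Mdga1 in the contrasts for which they were selected, and support nothing there; they were 2, 2 and 1 in HT against WT, HM against WT and HM against HT, also with the replicate block. Without a trend in the variance prior, 0 genes were called in HT and 1 in HM against WT, and 1 member in HT against WT and 0 in HM against HT had an unadjusted p under 0.05. With the animal-number block, 4 members had an unadjusted p under 0.05 in HM against WT, and the median of the partner genes there was 0.019 instead of 0.057. Without a filter 2 genes were called in HM against HT, and 1 fit of all 12 mice or median centring left 0 members with an unadjusted p under 0.05 there. Correction for transcript length and GC content lowered the values against WT in HT and HM mice to 0.07 and 0.06 for Nlgn1, 0.16 and 0.13 for Nlgn3, 0.013 and 0.036 for Nrxn2, 0.05 and 0.04 for Nrxn3, 0.13 and 0.25 for Mdga1, 0.05 and 0.07 for Mdga2, and 0.075 and 0.04 for Nlgn2. By mean transcript length 4 of the 7 genes kept their place in the order of levels, and by the union of exons 5 did, with Nlgn2 and Nrxn2 exchanged.

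Leaving out each mouse in turn gave 1 to 5 genes called in HT against WT (5 without HT replicate 3), 2 to 3 in HM against WT and 1 to 7 in HM against HT (7 without HM replicate 2 or 3). The median of the partner genes in HM against WT ranged from 0.029 to 0.066. Members with an unadjusted p under 0.05 ranged from 1 to 4, from 2 to 5 and from 0 to 1, and members with a higher mean in HM than in HT mice from 2 to 5. In that comparison 4 members changed sign, Nlgn1 (-0.038 to 0.020), Nlgn3 (-0.045 to 0.003), Nrxn3 (-0.036 to 0.018) and Mdga2 (-0.035 to 0.069), and no member did so against WT. The widest 95% interval of a member was that of Mdga2 in HM against WT, from -0.07 to 0.29.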
